A study of Arabidopsis thaliana with 12 samples.

Results

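AT1G36380 and AT1G36390 are neighbouring protein-coding genes on chromosome 1 of Arabidopsis thaliana, and both gave far less signal in sdg8hub2 double-mutant seedlings than in either single mutant or in wild type. They were picked by locus: 2 genes of 13350 named in the annotation of 22810 probe sets, each read by 1 probe set annotated to that gene alone. Both probe sets are of the plain "at" type, which is designed to match a single transcript. The genes were chosen because of their low values in the double mutant, so every comparison that holds double-mutant arrays is given for them as a description without a test. Comparisons among sdg8, hub2 and wild type do not hold those arrays and were tested, although they share arrays with the comparisons behind the choice.

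Whole seedlings of ecotype Columbia were measured on 12 Affymetrix arrays, 3 each for the double mutant sdg8hub2, its single mutants sdg8 and hub2, and wild type. Growth lasted 6 days at 22 °C under a light period of 16 h and a night of 8 h, and the labels call the 3 arrays of a group independently grown biological replicates. The labels name no allele, and the targeted genes could not be checked because their probe sets are unnamed in the annotation used. Values are probe set intensities on the authors' scale, where every array has the same trimmed mean of 500.1. Replicate spread was similar across genotypes, with a median within-group SD of 0.191 in sdg8hub2, 0.199 in sdg8, 0.193 in hub2 and 0.167 in wild type on the log2 scale. All 4 green tissue marker genes gave signals of at least 1570 intensity units on every array, while both pollen markers, genes that seedlings should lack, stayed at or below 31.1.

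SDG8 encodes a methyltransferase that places methyl groups on lysine 36 of histone H3, and HUB2 encodes a RING-type ligase that works with HUB1 to attach ubiquitin to histone H2B. Both marks are found along the bodies of transcribed genes. AT1G36390 encodes a GrpE-type co-chaperone. GrpE proteins, first described in bacteria, are nucleotide exchange factors: they make Hsp70 chaperones release ADP so that a new folding cycle can start, and plants carry them in plastids and mitochondria. The tables used here give no name or role for AT1G36380. In the RefSeq gene order the annotated spans of both genes overlap, and the long non-coding RNA gene AT1G06977 lies within the span of AT1G36390. The strand of each gene and the place of the probes within it were not available in the tables used, so whether the probes lie in the shared stretch was not examined.

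AT1G36390, the co-chaperone gene, had intensities of 69.4, 61.8 and 55.5 on the sdg8hub2 arrays (replicates 1, 2 and 3), against 457, 417 and 483 on the wild-type arrays. The sdg8 arrays gave 405.9, 358 and 344, and the hub2 arrays gave 469, 682 and 466. Every double-mutant array lay below every other array, and the lowest of the other 9 arrays, at 344, was still far above the highest double-mutant value of 69.4. This separation rests on the values for which the gene was chosen, so it is only a description. The mean in sdg8hub2 was 13.7% of the wild-type mean on the log2 scale, or 7.28-fold lower, with a log2 difference of -2.86 (SE 0.16).

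AT1G36380 had intensities of 98.4, 102.1 and 100.4 on the sdg8hub2 arrays, against 647, 738 and 732 on the wild-type arrays. The sdg8 arrays gave 343.5, 535.7 and 301.9, and the hub2 arrays gave 715, 768 and 590. The double-mutant arrays again lay below all others and were very close to each other, with an SD of 0.03 on the log2 scale. The mean in sdg8hub2 was 14.2% of that in wild type, or 7.02-fold lower, with a log2 difference of -2.81 (SE 0.17). Among the 18196 probe sets tested, ordered from the largest fall in sdg8hub2 against wild type, AT1G36390 ranked 21 and AT1G36380 ranked 24. These ranks and the separation of the arrays rest on the double-mutant values behind the choice of the genes, so they only describe the falls.

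**Figure D1:**
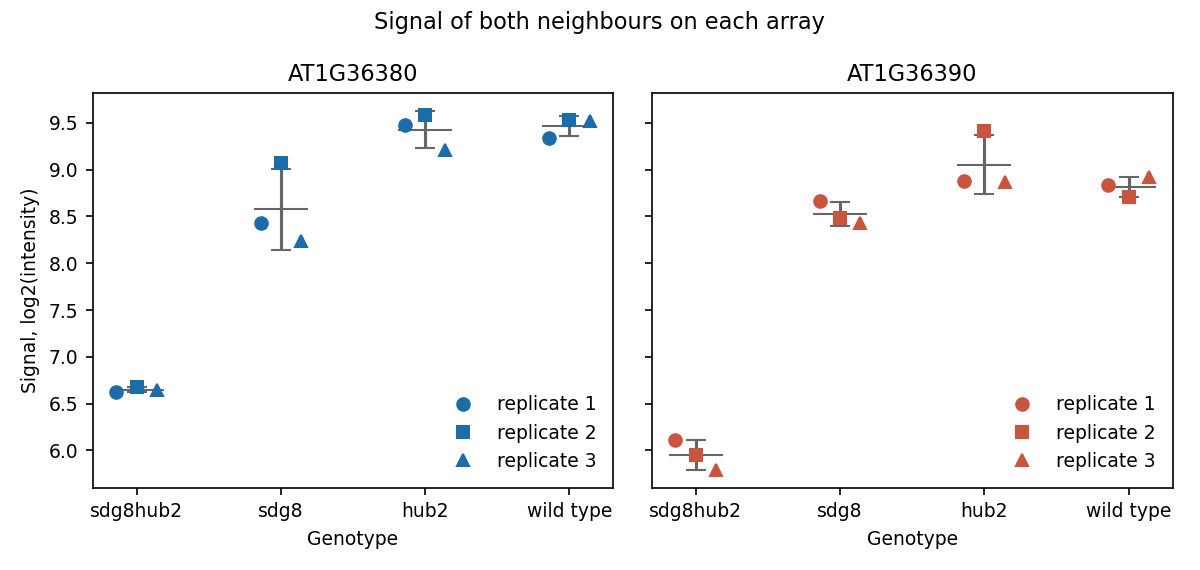
Signal of AT1G36380 and AT1G36390 on each of the 12 arrays, as log2(intensity), by genotype; symbols are replicates, and grey bars are the group mean and SD (n = 3). All 3 sdg8hub2 arrays lie below every other array for both genes, which were chosen for their low sdg8hub2 values. The sdg8 arrays of AT1G36380 lie between them and wild type.

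The double-mutant signals were low but not at the bottom of the array. The group mean of AT1G36380 in sdg8hub2 stood at percentile 43.9 of all probe sets, against percentile 79.9 in wild type. That of AT1G36390 stood at percentile 36.1 in sdg8hub2 and at percentile 72.2 in wild type. Both means were above the 18.6 intensity units below which probe sets were left out of the fit. No detection calls were used, so how much of these low signals is background was not examined. Since folds against low signals depend on the background, they were also taken on the log2(intensity + 64) scale, where the differences from wild type were -2.23 for AT1G36380 and -2.03 for AT1G36390. In whole seedlings, fewer cells that express a gene and less RNA per cell cannot be told apart.

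Markers of tissues were set beside the fall in sdg8hub2. The 2 named root markers, the root hair expansin genes EXPA7 and EXPA18, had a summed signal of 320 to 490 in sdg8hub2, 400 to 479 in sdg8, 490 to 530 in hub2 and 615 to 666 in wild type, and both lay below all wild-type arrays in sdg8hub2 and in sdg8. The 4 green tissue markers, 3 LHCB4 antenna genes and PORB, summed to 25300 to 26100 in sdg8hub2, 28200 to 31900 in sdg8, 30900 to 34700 in hub2 and 25200 to 28700 in wild type, sums to which LHCB4.1 gave the most. Of these 4, 2 lay below all wild-type arrays in sdg8hub2, 2 lay below and 1 above them in sdg8, and 3 lay above them in hub2. The share of all probe sets that lie wholly below or above wild type was not counted. Without it, these counts, those of the root markers included, only describe the markers. PORB, which encodes an enzyme of chlorophyll synthesis, had a mean log2 signal of 10.71 in sdg8 and 11.62 in wild type. The part of tissue make-up in the signals of AT1G36380 and AT1G36390 was not tested.

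The single mutants show how each gene responds to loss of SDG8 or HUB2 alone. Against wild type, AT1G36380 fell in sdg8, by 0.88 on the log2 scale (95% interval -1.24 to -0.53, adjusted p = 0.000887, limma with Benjamini-Hochberg adjustment over all 18196 probe sets), which is 1.85-fold. The 3 sdg8 arrays stood at 48.8%, 76.1% and 42.9% of the wild-type mean. Replicate 2 was the highest of them, and without it the log2 difference was -1.13. AT1G36390 had a log2 difference of -0.29 in sdg8 (95% interval -0.63 to 0.04, adjusted p = 0.261, limma) and did not pass the test. Its sdg8 arrays stood at 90%, 79.3% and 76.2% of the wild-type mean, all below the lowest wild-type array at 92.3%. The sdg8 and wild-type arrays of AT1G36380 did not overlap either. How many of all probe sets separate in this way was not counted. So 1 of the 2 genes was called in sdg8, where 14.3% of all probe sets tested were called, 7.86% as lower and 6.41% as higher.

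In hub2 neither gene passed the test against wild type, where 2.85% of probe sets were called, 1.46% as lower and 1.4% as higher. AT1G36380 had a log2 difference of -0.04 (95% interval -0.39 to 0.31, adjusted p = 0.958, limma), and its hub2 and wild-type arrays overlapped. AT1G36390 had a log2 difference of 0.23 (95% interval -0.10 to 0.57, adjusted p = 0.559, limma), and its groups overlapped as well. That value rested on hub2 replicate 2, at 151% of the wild-type mean, while replicates 1 and 3 stood at 104% and 103%. Without that array the difference was 0.05. The same array had the highest 3' minus 5' difference of the 12 on both actin and both GAPDH control pairs, a measure of RNA integrity and labelling, with log2 differences of 2.06 for actin and 1.66 for GAPDH on the pairs where it stood out most, against 1.00 to 1.53 and 0.35 to 0.84 on the other arrays. The part of RNA quality in its AT1G36390 signal was not tested.

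Between the single mutants, AT1G36380 was lower in sdg8 than in hub2 by a log2 difference of -0.85 (95% interval -1.20 to -0.50, adjusted p = 0.00125, limma). AT1G36390 was also lower in sdg8, by a log2 difference of -0.53 (95% interval -0.86 to -0.19, adjusted p = 0.0299, limma). In this comparison 8.73% of probe sets were called as lower in sdg8, and both genes were among them. The call for AT1G36390 was not kept when sdg8 replicate 2 was left out (log2 difference -0.51, adjusted p = 0.0841), when sdg8 replicate 3 was (-0.48, adjusted p = 0.0909) or when hub2 replicate 2 was (-0.34, adjusted p = 0.184), nor with median centring, quantile normalization, array weights or without the variance trend (limma).

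**Figure D2:**
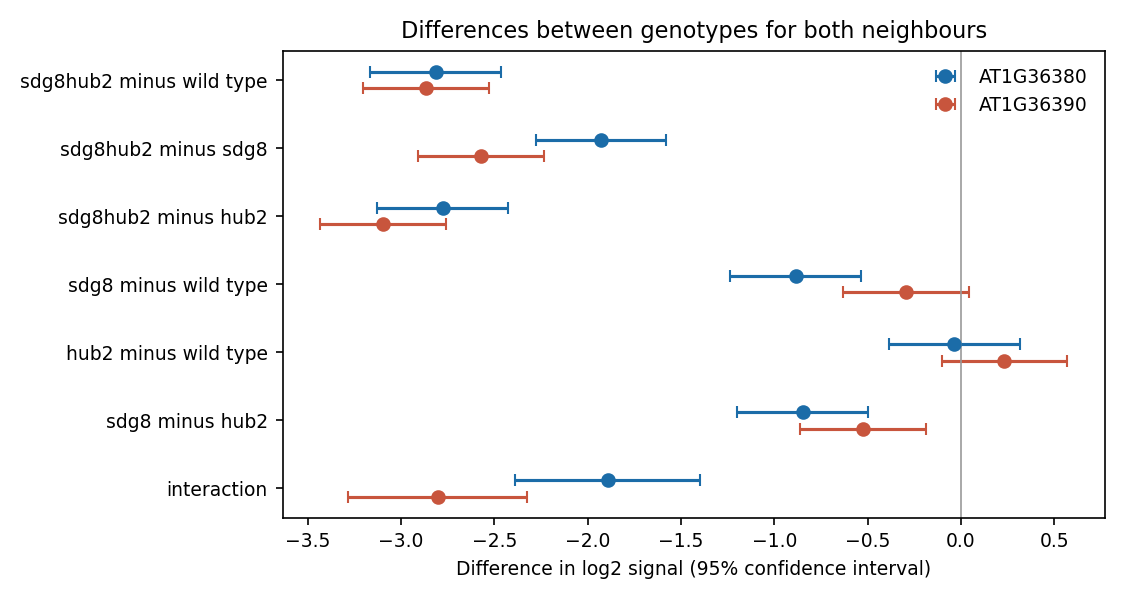
Differences in log2 signal between genotypes for AT1G36380 and AT1G36390, with 95% confidence intervals from the fit to all 12 arrays. Interaction is the difference of sdg8hub2 from sdg8 less that of hub2 from wild type. Intervals that involve sdg8hub2, the interaction included, are not adjusted for the choice of the genes and are no test. The differences of sdg8hub2 from the other genotypes lie between -3.10 and -1.93, and those among the single mutants and wild type between -0.88 and 0.23. The interactions are -1.89 for AT1G36380 and -2.80 for AT1G36390.

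The levels of both genes can be put in order by group mean. For AT1G36380 the group means, from low to high, were 100.3 ± 1.83 intensity units in sdg8hub2, 394 ± 125 in sdg8, 691 ± 91.5 in hub2 and, highest, 706 ± 51.2 in wild type (SD, n = 3 each). Hub2 and wild type did not differ beyond their spread. For AT1G36390 the order was 62.2 ± 6.95 in sdg8hub2, 369 ± 32.5 in sdg8, 452 ± 33.5 in wild type and 539 ± 124 in hub2 (SD, n = 3 each), and neither single mutant passed the test against wild type.

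The double mutant was also set against each single mutant. Against sdg8, it was lower by log2 differences of -2.57 for AT1G36390 (SE 0.16, 5.94-fold) and -1.93 for AT1G36380 (SE 0.17, 3.81-fold). Against hub2, it was lower by -3.10 for AT1G36390 (SE 0.16, 8.56-fold) and -2.78 for AT1G36380 (SE 0.17, 6.85-fold). If the changes of both single mutants added up on the log2 scale, the double mutant would stand at an intensity of 433 for AT1G36390, and it was measured at a geometric mean of 62. For AT1G36380 the sum would be 372, against a measured 100. The interaction was -2.80 (SE 0.23) for AT1G36390 and -1.89 (SE 0.24) for AT1G36380. These comparisons share arrays with each other and with those behind the choice of the genes.

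The neighbours were set against each other by their log2 ratio within each array, relative to its wild-type mean. This takes out the scaling of each array and constant differences in probe brightness, but not the background at low signals. In sdg8hub2 against wild type their changes differed by 0.05 on the log2 scale (AT1G36380 minus AT1G36390, SE 0.23), and the sign of this value turned in 3 of the alternatives tried. In sdg8 the log2 ratio of AT1G36380 to AT1G36390, relative to its wild-type mean, was -0.88, -0.06 and -0.83 on replicates 1, 2 and 3, against -0.14, 0.18 and -0.04 in wild type. Replicates 1 and 3 of sdg8 lay below all wild-type arrays and replicate 2 did not. The mean change of AT1G36380 was lower by 0.59 on the log2 scale (SE 0.23). An exact two-sided permutation test over 3 against 3 arrays gave p = 0.2, and 0.3 adjusted over the 3 comparisons. The smallest p this design allows is 0.1, so the test could not reach 0.05 in any of the 3 comparisons. It therefore cannot decide whether the neighbours moved by different amounts. The difference between the neighbours' changes was -0.27 in hub2 against wild type (exact permutation p = 0.3) and -0.32 in sdg8 against hub2 (exact permutation p = 0.3), both also with an adjusted p of 0.3. In the double mutant against sdg8, where it is given without a test, the fall of AT1G36390 was the deeper one, with a difference of 0.64 (SE 0.23).

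**Figure D3:**
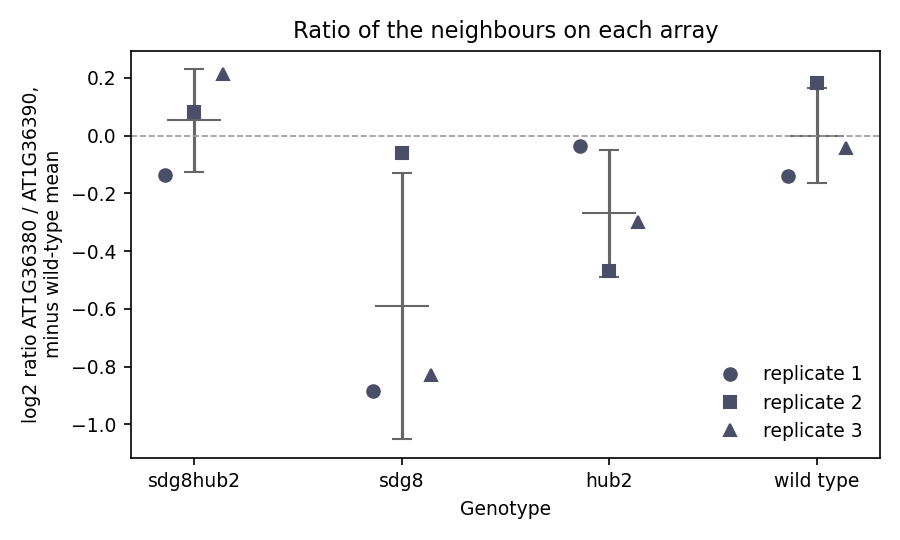
log2 ratio of AT1G36380 to AT1G36390 on each array minus its wild-type mean, by genotype; symbols are replicates, grey bars the mean and SD (n = 3), and the dashed line the wild-type mean. The sdg8hub2 arrays lie between -0.14 and 0.21, and sdg8 replicates 1 and 3 at -0.88 and -0.83 are the lowest of the 12.

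Of the measured genes around the pair, only AT1G36310 and AT1G36320 passed the filter and were tested, and neither was called as lower in any comparison. They lie 8 and 7 genes before the pair, so the genes nearest to it were not tested. Of the 10 genes before and the 10 genes after it in RefSeq order, 5 are protein-coding, 11 are pseudogenes and 1 is a transcribed pseudogene, and 5 of the 20 have a probe set annotated to them alone. SHM7, the serine hydroxymethyltransferase gene next to AT1G36380, is not among those 5. AT1G36310 passed the test only in sdg8hub2 against wild type. It had intensities, in ascending order, of 1240, 1270 and 1350 in sdg8hub2, against 816, 929 and 1050 in wild type, and rose by a log2 difference of 0.47 (SE 0.13, adjusted p = 0.0113, limma). AT1G36320 had 1170, 1200 and 1600 in sdg8hub2 and 1170, 1220 and 1290 in wild type, with a log2 difference of 0.09 (SE 0.11, adjusted p = 0.620, limma). In sdg8hub2 against wild type, 18.5% of all probe sets were called, 10.5% as lower and 8.01% as higher. UBC31, a ubiquitin-conjugating enzyme gene, and the pseudogenes AT1G36430 and AT1G36440 did not pass the filter on low values and were not tested. The rise of AT1G36310 was not called without wild type replicate 1 or without the variance trend.

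**Figure D4:**
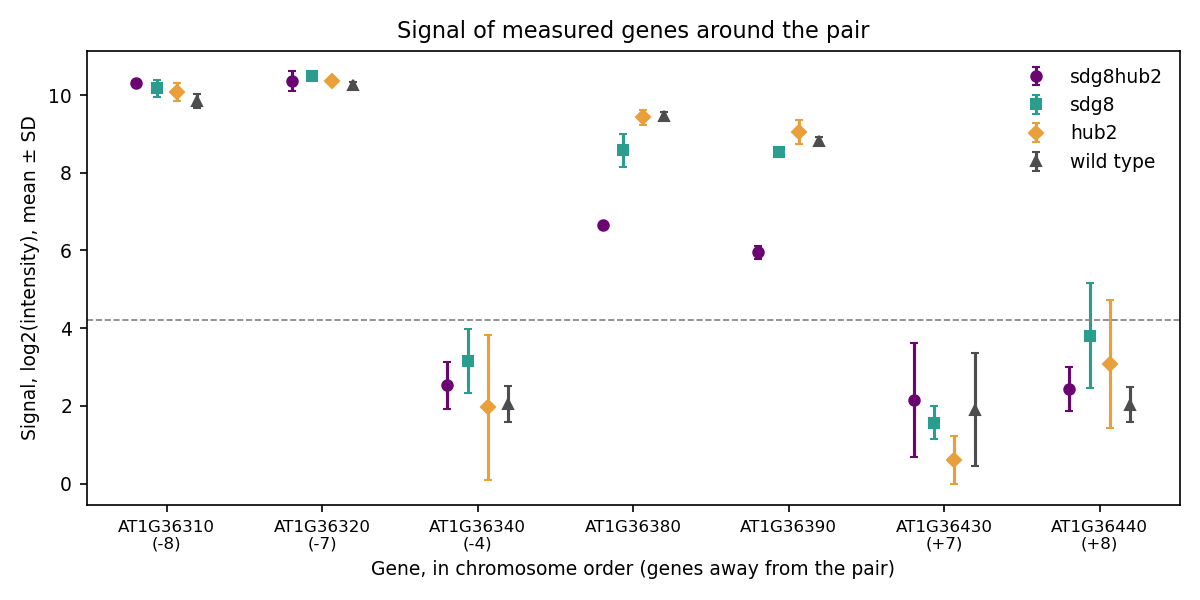
Mean signal, as log2(intensity) with SD (n = 3 per genotype), of the measured genes around the pair in chromosome order; numbers in brackets count genes away from the pair, and the dashed line is the filter on low values at 18.6 intensity units. Among the 7 genes shown, only AT1G36380 and AT1G36390 have their sdg8hub2 mean far below the other genotypes. Both were chosen for their low sdg8hub2 values, so this only describes them. The means of UBC31, AT1G36430 and AT1G36440 lie below the filter in every genotype, where a fall of that size could not be seen.

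The fall was also set beside that of other adjacent genes. Of 3921 pairs of protein-coding genes next to each other with both measured, 332 had at least 1 gene 2-fold or more lower in sdg8hub2 than in wild type, 19 of them had both that low, and 6 of all pairs had both at least 2-fold higher. AT1G36380 and AT1G36390 were 1 of the 19, and in no other of them did the lesser of both falls reach theirs. Both were chosen for their low double-mutant values, so this place among the pairs is a description and no separate support. The next was AT1G15040 with AT1G15050, at log2 differences of -3.20 and -1.77. Of the 649 measured pairs whose annotated spans overlap, 2 were among the 19, and the other was AT3G24100 with AT3G24110, singled out after its values were seen. The count of 19 was 11 with median centring, 13 with quantile normalization and 1 on the log2(intensity + 64) scale.

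Other chaperone genes give a context for AT1G36390. The list held 68 genes of GrpE, Hsp70, J-domain, chaperonin, Clp, Hsp90 and BAG families, of which 13 are named in the annotation, and all 12 besides AT1G36390 passed the filter. No other GrpE gene and no plastid or mitochondrial Hsp70 gene, the direct partners of GrpE proteins, is named there, so those were not analysed here. In sdg8hub2 against wild type 1 of the 12 fell and 3 rose, where 10.5% of all probe sets tested fell and 8.01% rose, with a median log2 difference of 0.07 over the 12 and -0.05 over all probe sets. In sdg8 2 of the 12 fell and 2 rose, where 7.86% of all fell and 6.41% rose, with medians of 0.19 and -0.02. In hub2 2 of the 12 rose and the others did not pass the test, where 1.46% of all fell and 1.4% rose, with medians of 0.15 over the 12 and 0.00 over all probe sets.

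SGT1A, a co-chaperone of Hsp90 in plant immunity, was the gene of the list that fell in sdg8hub2. Its intensities were 223, 271 and 292 in sdg8hub2, 177, 227 and 262 in sdg8, 527, 582 and 602 in hub2 seedlings, and 439, 500 and 521 in wild-type seedlings, in ascending order within each group. It was low in sdg8 and in sdg8hub2, with log2 differences from wild type of -0.90 (SE 0.15, adjusted p = 0.000197, limma) in sdg8hub2 and -1.15 (SE 0.15, adjusted p = 1.43e-05, limma) in sdg8. Its interaction was 0.02 (SE 0.21, adjusted p = 0.977, limma), where 6.46% of probe sets were called.

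Cpn60beta3, which encodes a beta subunit of the plastid chaperonin, had intensities of 256, 286 and 308 in sdg8hub2, 99.6, 129 and 150 in sdg8, 246, 298 and 354 in hub2 seedlings, and 249, 261 and 313 in wild-type seedlings. It fell in sdg8, by 1.13 on the log2 scale (SE 0.18, adjusted p = 0.000126, limma), and was higher in the double mutant than in sdg8 by 1.18 (SE 0.18, adjusted p = 0.000101, limma), where 6.7% of probe sets were called as higher. That is the opposite direction to AT1G36390 in the same comparison, where the double mutant was the lower. Cpn60beta2 rose in all 3 mutants, by log2 differences of 0.51 in sdg8hub2, 0.46 in sdg8 and 0.52 in hub2 (adjusted p = 0.000648, 0.0023 and 0.00409, limma). Hsp70-2, a cytosolic Hsp70 gene, rose by 0.60 in sdg8hub2 and by 0.95 in hub2 (adjusted p = 0.0135 and 0.00206, limma), and the Hsp90 co-chaperone gene AT4G02450 rose by 0.40 in sdg8hub2 (adjusted p = 0.00939, limma). Fes1A, an exchange factor of cytosolic Hsp70, rose by 0.51 in sdg8 (adjusted p = 0.0330, limma), a call that 4 of the 12 arrays each decided: it was not kept without wild type replicate 1 or 2 or sdg8 replicate 1 or 3. The rise of Hsp70-2 in sdg8hub2 was not called without wild type replicate 1 or 3 or sdg8hub2 replicate 1, and that of AT4G02450 not without wild type replicate 1. Without the variance trend, these 3 calls and those of Cpn60beta2 and Hsp70-2 in hub2 were not made.

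**Figure D5:**
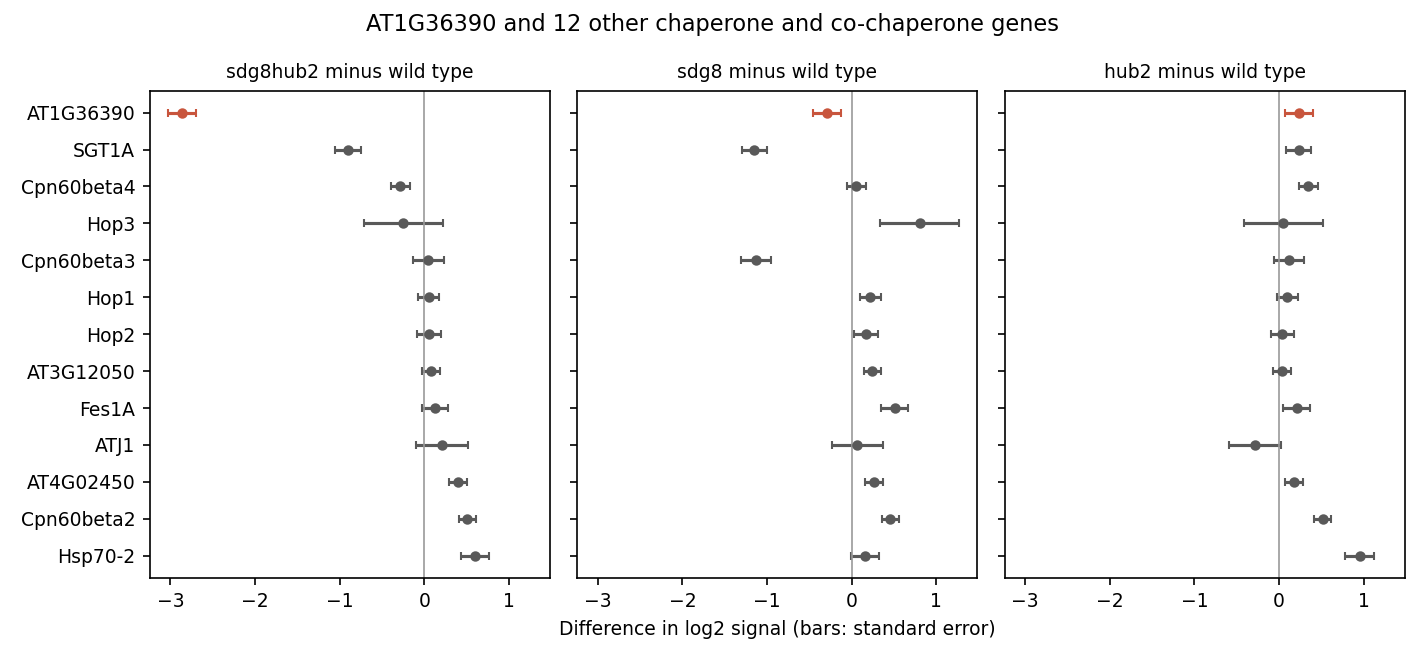
Differences in log2 signal from wild type, with standard errors, in sdg8hub2, sdg8 and hub2 for AT1G36390 and the 12 other measured chaperone and co-chaperone genes, ordered by the value in sdg8hub2. AT1G36390 stands at -2.86 in sdg8hub2, and the next lowest gene, SGT1A, at -0.90. AT1G36390 was chosen for its low sdg8hub2 values, so its place in this order is only a description.

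Over the 12 arrays, each gene's closest profile among 10229 other single-gene probe sets was its neighbour. Closeness is the root mean square distance between log2 profiles centred on their own means, and it was 0.34 between AT1G36380 and AT1G36390. The next closest to AT1G36380 were AT1G66100, a thionin gene, at 0.46, AT3G23550 at 0.49, AT5G62340 at 0.52, MGL, which encodes methionine gamma-lyase, at 0.54 and AT4G15660 at 0.56. AT1G66100 averaged -1.89 in sdg8hub2, -0.96 in sdg8 and 0.54 in hub2 relative to its wild-type mean on the log2 scale. The next closest to AT1G36390 were APL4, a gene for a large subunit of the enzyme that makes ADP-glucose for starch, and AT5G53020, both at 0.52, then AT4G39675 and AT1G50140, both at 0.60, and AT4G37220 at 0.61. AT5G53020 averaged -3.04 in sdg8hub2, -0.29 in sdg8 and -0.47 in hub2 relative to its wild-type mean on the log2 scale, with an SD of 0.80 among the hub2 arrays. These distances carry no test, and the profiles share the same arrays. They include the low double-mutant values for which both genes were chosen. That each is the other's closest profile is therefore no separate support for a shared behaviour.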

How the data were processed

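The deposited values are linear probe set intensities for 12 arrays, made by the authors with MAS5 and the affy package, per the submitters' processing notes; no versions are stated. No detection calls or scanner files were used, and the number of arrays limits the precision. Intensities were raised to a floor of 1.18 (the 1st percentile) and taken as log2. The 64 control probe sets were left out, as were probe sets whose mean lay below the 20th percentile, which left 18196. The fit, in limma 3.58.1 under R 4.3.3, had a mean per genotype, all 12 arrays and an intensity trend in the variance. P-values are two-sided, adjusted by Benjamini-Hochberg over all 18196 probe sets and called at 0.05. The fit was tested on simulated data. Differences between the neighbours used an exact permutation test over arrays.

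Probe sets were named from the platform annotation, updated through RefSeq genes of TAIR10.1, used for names and gene order only: 13513 have 1 symbol, 503 several and 8794 none, and 13436 matched RefSeq. Members, gene lists and tests were chosen with earlier results of these data known. Named genes are the 2 members, measured genes within 10 genes of them, GrpE and organelle Hsp70 genes, up to 4 other called chaperone genes per comparison, and the 5 closest profiles per member. Copper and histone chaperones matched by name were left out of the chaperone list.

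Alternatives were median centring, quantile normalization, log2(intensity + 64), no filter, a filter at the 50th percentile, no variance trend, array weights, only the groups compared, a replicate block, and leaving out each of the 12 arrays.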

Additional observations from a re-analysis of the deposited data

Results flagged for a closer look

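For AT1G36390, every sdg8hub2 array lay below the sdg8 mean, by a mean log2 difference of -2.57, while every hub2 array lay above the wild-type mean, by a mean of 0.23. The hub2 value did not pass the test against wild type (adjusted p = 0.559, limma), the hub2 and wild-type arrays overlapped, and it was 0.05 without hub2 replicate 2, so it gives no direction for loss of HUB2 alone. The contrast of both, -2.80 on the log2 scale, was not tested because the double-mutant arrays chose the gene.

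In 3 of the 12 other chaperone genes, where 6.46% of all probe sets were called, the effect of losing HUB2 differed between the sdg8 and the wild-type background by the interaction test in limma. The interaction was 1.06 for Cpn60beta3 (AT5G56500, adjusted p = 0.0131), -0.68 for Cpn60beta4 (AT1G26230, adjusted p = 0.0126) and -0.46 for Cpn60beta2 (AT3G13470, adjusted p = 0.0467). Those of Cpn60beta3 and Cpn60beta4 were called in 19 of 20 alternatives, and that of Cpn60beta2 was not called in 14 of 20. Cpn60beta4 had intensities of 507, 571 and 597 in sdg8hub2, 666, 722 and 724 in sdg8, 807, 881 and 897 in hub2 seedlings, and 581, 706 and 755 in wild-type seedlings.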

How the results depend on the processing

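The falls of both genes in sdg8hub2 kept their direction in every alternative tried. On the log2(intensity + 64) scale, for AT1G36380 and AT1G36390 in that order, sdg8hub2 differed by -2.23 and -2.03 from wild type, by -1.44 and -1.78 from sdg8 and by -2.19 and -2.24 from hub2, with interactions of -1.41 and -1.99. There the difference between the neighbours' changes was -0.20 in sdg8hub2 against wild type, a turned sign, 0.33 against sdg8 and 0.57 for the interaction. Leaving out each array gave, for AT1G36380, -2.10 to -1.68 against sdg8, -2.06 to -1.65 for the interaction and -0.12 to 0.073 in hub2 against wild type, where the sign turned without hub2 replicate 3. It gave -0.028 to 0.15 for the neighbours' difference in sdg8hub2 against wild type, whose sign turned without wild type replicate 1 and without sdg8hub2 replicate 3. The fall of AT1G36380 in sdg8 was called in all 21 alternatives (adjusted p from 3.33e-05 to 0.0200, limma), as was its lower level in sdg8 than in hub2 (5.22e-05 to 0.0223). The lower level of AT1G36390 in sdg8 than in hub2 was not called with median centring (-0.46, adjusted p = 0.0728), quantile normalization (-0.51, 0.0632), no variance trend (-0.53, 0.0638) or array weights (-0.43, 0.0708), and ran from -0.62 to -0.34 with each array left out (adjusted p from 0.0244 to 0.184, limma). The cause was not tested.

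No pairing of the arrays by replicate number was seen: deviations of same-numbered arrays correlated at -0.13 to 0.04, 0 of 18 pairs above 0.1, and 2 of 12 arrays were closest to their own number. These values cannot show whether same-numbered samples were grown or handled together. With the replicate block, the count of calls was 0.863 to 0.972 of that without it, and the change of AT1G36380 in sdg8 was -0.88 (adjusted p = 0.000443, limma). No call for AT1G36380 or AT1G36390 changed under the block.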
